A study of Mus musculus with 15 samples.

Results

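Motor neurons of mice with spinal muscular atrophy (SMA) that had received the p38 inhibitor MW150 were compared with motor neurons of SMA mice that had received SMN-C3, a small molecule that corrects the splicing of SMN2. The comparison used 6 of the 15 libraries of the series, 3 from SMA+MW150 and 3 from SMA+SMN-C3 mice, grouped by their labels. Each library held RNA from lumbar motor neurons (L1 to L3) that had been labelled by retrograde tracing with cholera toxin subunit B (CTB) and cut out by laser at postnatal day 6. All SMA mice were SMNΔ7 animals (Smn-/-;SMN2;SMNdelta7), which lack the mouse Smn gene and carry the human SMN2 gene and a second human transgene that makes SMN RNA without exon 7. The treated mice were injected intraperitoneally every day from postnatal day 0, with MW150 at 5 mg/kg or with SMN-C3 at 3 mg/kg, so the doses differed. SMA mice given vehicle (3 libraries) and WT littermates given vehicle (Smn+/+;SMN2;SMNdelta7, 3 libraries) served as the background, all on the FVB strain with males and females in equal proportion. The remaining 3 libraries came from SMA mice given Pifithrin-alpha at 2.2 mg/kg. They entered the filter, the scaling and the shared estimate of the spread, and are not described here. The labels call the libraries biological replicates and do not say how many mice went into each. Each agent was given to the whole animal and not to motor neurons alone.

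SMN assembles the Sm protein ring on spliceosomal snRNAs, and its loss in SMA kills a subset of spinal motor neurons. The tumour suppressor p53 accumulates in these neurons in SMNΔ7 mice. It drives genes for cell cycle arrest (Cdkn1a), for its own removal (Mdm2) and for cell death (Fas, Pmaip1, Bax). p38 is a stress-activated MAP kinase that can phosphorylate p53 and many other proteins, and MW150 blocks its alpha form. SMN-C3 acts before both, by raising the amount of full-length SMN that SMN2 makes.

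The values are TPM per gene (transcripts per 1000000 transcripts), divided by a scaling factor for each library (median of ratios to the typical library). Of 36144 genes, 15425 had at least 1 TPM in at least 3 of the 15 libraries and were tested with limma on log2(scaled TPM + 1). Differences are log2 changes of SMA+MW150 minus SMA+SMN-C3, so a positive value means more RNA with MW150, and they understate the change of low genes. Genes with a p under 0.05 after Benjamini-Hochberg adjustment over all tested genes are termed called. The depth of the libraries is unknown, since TPM values carry no counts.

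Several values of the libraries as a whole separated the treatments. Between 14065 and 14576 genes reached 1 TPM in the MW150 libraries, against 12901 to 13069 in the SMN-C3 libraries (14362 ± 265 and 12992 ± 85.0, SD, n = 3 each). The groups did not overlap, and the exact two-sided permutation test gave p = 0.1, the smallest that 3 against 3 libraries allow. The scaling factors were 1.14 to 1.21 with MW150 and 0.915 to 0.971 with SMN-C3, and the 100 most abundant genes took 28.7% to 29.2% of TPM with MW150 and 31.0% to 35.6% with SMN-C3, again without overlap. Mitochondrially encoded genes took 5.68% to 7.52% of TPM with MW150 and 5.92% to 11.3% with SMN-C3. The motor neuron genes Chat, Slc18a3, Slc5a7, Isl1, Mnx1 and Prph were expressed in all 6 libraries.

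The targeted gene was checked first. Smn1, the mouse gene deleted in SMA mice, stood at 1.24, 0.143 and 0.214 scaled TPM in the MW150 libraries and at 0.111, 0 and 0.827 in the SMN-C3 libraries, against 11.4, 17.5 and 21.7 in WT. It was called lower than in WT with both agents (log2 -3.57 and -3.77). The human SMN2 transcript, on which SMN-C3 acts, was not analysed here.

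Only Ly6d separated the treatments by the test across all genes. Ly6d encodes a small membrane-anchored protein of the Ly6 family, and lies at chromosome 15, 74762056 to 74763620, minus strand (GRCm38). It stood at 19.2, 14.7 and 26.2 scaled TPM in the MW150 libraries and was listed at 0 in all 3 SMN-C3 libraries and all 3 WT libraries. The SMA libraries held 37.9, 48.0 and 6.55. The difference of 4.36 on the log2(scaled TPM + 1) scale (SE 0.532, adjusted p = 0.0051 by limma) made it 1 called gene of 15425 (0.00648%), and higher values stood in 3 of 3 MW150 libraries. The call was lost without MW150 replicate 1 (adjusted p = 0.053) or MW150 replicate 3 (adjusted p = 0.076), with a pseudocount of 5 (adjusted p = 0.26) and with no filter on low values (adjusted p = 0.19).

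Beyond this gene the difference between the treatments was spread thinly. At an unadjusted p under 0.05, 890 genes were higher with MW150 (5.77%) and 282 were lower (1.83%). The 3 MW150 libraries lay wholly above the 3 SMN-C3 libraries for 2064 genes (13.4%) and wholly below for 2021 (13.1%), and these shares are the background for the counts below. When only the 6 libraries entered the fit, 82 genes were called, 67 higher and 15 lower. The same libraries were also set against shared controls. Against SMA, 1 gene was called with MW150 (0.00648%) and 10 with SMN-C3 (0.0648%), all lower than in SMA, and Traj45 and Ly6d were among the 10. Against WT, 19 genes were called with MW150 (0.123%) and 5 with SMN-C3 (0.0324%). Each sample is RNA from captured cells, so fewer cells of a type and less RNA per cell cannot be told apart.

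p53 target genes stood higher with MW150 than with SMN-C3. All 42 listed targets were tested; 38 had a log2 change above 0, against 52.8% of all genes, and for 18 (42.9%) every MW150 library was above every SMN-C3 library, against 13.4% of all genes. None of the 42 showed the reverse, against 13.1%. The list's median level lay in the second of 4 equal bins of level. In that bin 17% of genes lay wholly higher with MW150 and 3.79% wholly lower, so few reversals would be found at that level. The median change of the targets was 0.44, beside 0.04 over all tested genes, and stayed above 0 under each of the other scalings tried (0.31 to 0.67). No target was called in this contrast. The list's median against SMA was -0.23 with MW150 and -0.49 with SMN-C3, and against WT 0.69 and 0.40, comparisons that share their control libraries.

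Cdkn1a, which encodes the cell cycle inhibitor p21, was the most abundant of the genes of arrest and feedback (chromosome 17, 29090976 to 29100727, plus strand). Its levels were 925, 791 and 510 scaled TPM with MW150 and 347, 334 and 333 with SMN-C3. The groups did not overlap, and the SMN-C3 values lay within a narrow band. Vehicle-treated SMA libraries held 1314, 1002 and 529, and WT libraries 45.7, 50.1 and 41.5. The log2 change between the treatments was 1.09 (SE 0.32, adjusted p = 0.47 by limma), and it was not called. Against WT, Cdkn1a was called higher with MW150 (log2 3.95, adjusted p = 1.2e-05) and with SMN-C3 (log2 2.86, adjusted p = 0.00043). Reads of Cdkn1a cannot be separated here from those of an unnamed gene that overlaps its exons on the other strand, if the library kit did not keep the strand.

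Cdkn1a has 2 promoters among the RefSeq starts, and they are shown because its transcripts come from both. The transcript that begins at the upstream start (ENSMUST00000119901.8) held 642, 512 and 330 scaled TPM with MW150 and 204, 187 and 208 with SMN-C3, which is 64.7% to 69.5% and 55.8% to 62.4% of the gene. The transcript from the downstream start (ENSMUST00000023829.7) held 274, 272 and 175 against 140, 147 and 124. Both were higher in every MW150 library than in any SMN-C3 library. Each run below is the 250 bases before the start, 5′ to 3′ on the plus strand, from RefSeq (GRCm38.p6), and capitals mark the spaced core of a p53 site, that is CATG, 6 bases of any kind and CATG again, searched on both strands.
Cdkn1a upstream promoter, chr17:29090729-29090978: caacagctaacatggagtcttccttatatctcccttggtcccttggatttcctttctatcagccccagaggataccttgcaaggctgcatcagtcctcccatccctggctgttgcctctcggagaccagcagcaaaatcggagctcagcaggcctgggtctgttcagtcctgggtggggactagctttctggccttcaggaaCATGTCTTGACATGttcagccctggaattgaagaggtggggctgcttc
Cdkn1a downstream promoter, chr17:29093519-29093768: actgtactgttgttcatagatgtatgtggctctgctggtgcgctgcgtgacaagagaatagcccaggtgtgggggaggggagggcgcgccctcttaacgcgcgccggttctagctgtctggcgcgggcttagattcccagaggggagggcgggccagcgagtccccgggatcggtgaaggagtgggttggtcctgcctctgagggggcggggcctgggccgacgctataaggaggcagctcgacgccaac
The upstream promoter held 1 match, which begins 48 bases before the start, and the downstream promoter held 0. The core is rare. It occurred in the 300-base promoter windows of 38 of 11114 tested genes with a promoter in the table (0.342%) and of 1 of 33 such p53 targets (3.03%), which was Cdkn1a, and in 0.712% of all 32851 windows. A match is a stretch of letters and says nothing of binding.

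The other genes of arrest and feedback lay on the same side. Of 11 tested, all 11 had a change above 0, with a median of 0.57, and 6 had libraries that did not overlap. Mdm2, the ubiquitin ligase that removes p53, stood at 41.4, 27.6 and 34.2 scaled TPM with MW150 and at 14.0, 17.2 and 19.5 with SMN-C3 (log2 0.98, SE 0.28, adjusted p = 0.46 by limma). Its MW150 levels lay within those of SMA (22.6 to 46.3), and its SMN-C3 levels lay below them, from the top of the WT range (10.6 to 14.1) upward. Gtse1, which binds p53 in G2, held 8.45, 6.21 and 4.35 against 1.43, 2.64 and 1.03 (log2 1.45, adjusted p = 0.37 by limma). Plk2, a stress-responsive polo-like kinase, held 21.1, 23.9 and 24.5 against 10.6, 11.6 and 10.6 (log2 1.02, adjusted p = 0.42 by limma). Gtse1 and Plk2 were called higher than in WT with MW150, each at an adjusted p of 0.037 by limma, and not with SMN-C3. Ccng1, another feedback gene, differed little, at 38.3 to 53.4 with MW150 and 36.8 to 47.4 with SMN-C3.

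Genes of cell death lay mostly on the same side. Of 15 tested, 13 had a change above 0 (median 0.43) and 7 had libraries that did not overlap, all higher with MW150. The examples in this paragraph were chosen after their values were seen. Fas, a death receptor, stood at 16.4, 14.1 and 12.3 scaled TPM with MW150 and at 4.85, 5.20 and 2.78 with SMN-C3 (log2 1.56, adjusted p = 0.55 by limma). Pmaip1, the BH3-only protein Noxa, held 8.42, 7.02 and 8.75 against 6.22, 1.70 and 2.02 (log2 1.22). Perp, a membrane protein of apoptosis, held 27.1, 34.7 and 18.5 against 12.9, 13.2 and 17.3 (log2 0.81). Some well-known effectors on the same list did not separate the treatments by their libraries. Bax had 205 to 230 with MW150 and 226 to 240 with SMN-C3, Bbc3 (Puma) 32.1 to 45.5 and 23.2 to 40.7, and Phlda3, an Akt inhibitor, 236 to 309 and 257 to 278. Bax shares exon sequence with a same-strand gene model, so its level is uncertain.

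Of the 16 targets in DNA repair and metabolism, 14 had a change above 0 (median 0.31), and 5 had libraries that did not overlap. Polk, a translesion DNA polymerase chosen for mention after its values were seen, held 10.6, 5.59 and 4.08 against 3.45, 0.522 and 1.68 (log2 1.47, adjusted p = 0.50 by limma). The regulators themselves were less clearly apart. Trp53 RNA stood at 28.6, 41.5 and 31.3 with MW150 and at 17.1, 35.8 and 21.6 with SMN-C3, groups that overlapped (log2 0.48, adjusted p = 0.70 by limma).

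**Figure D1:**
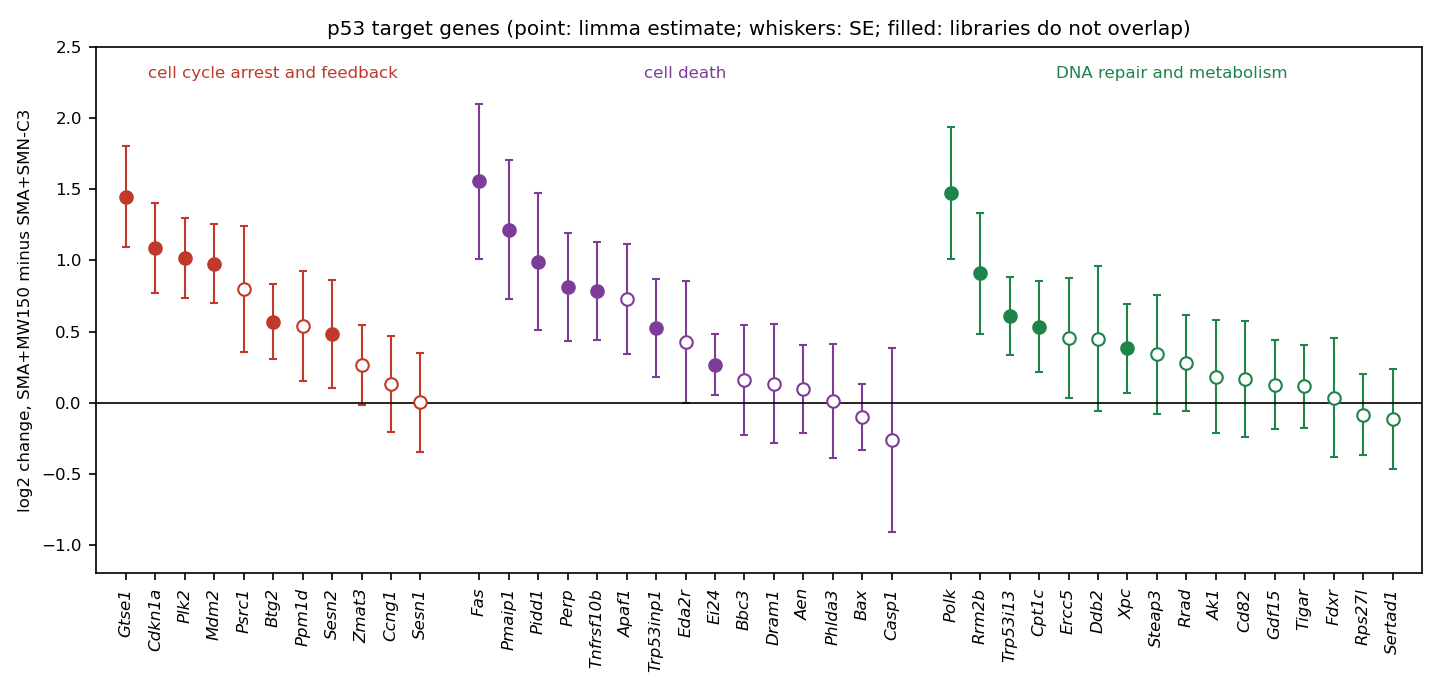
Log2 change of the 42 tested p53 targets between SMA+MW150 and SMA+SMN-C3, ordered by role; points are limma estimates, whiskers the SE, and filled points mark the 18 genes whose 3 MW150 libraries all lay above the 3 SMN-C3 libraries. All 11 genes of arrest and feedback lie above 0, from 0.003 for Sesn1 to 1.45 for Gtse1.

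A second set of genes, chosen by the smallest p and not by function, also stood higher with MW150. None of them was called. Lrrc17, which encodes a secreted leucine-rich repeat protein (chromosome 5, 21543559 to 21575904, plus strand), held 62.3, 23.3 and 25.6 scaled TPM with MW150 and 5.92, 6.24 and 4.62 with SMN-C3 (log2 2.39, SE 0.42, adjusted p = 0.13 by limma). Its SMA and WT levels, 11.5 to 36.7 and 17.7 to 32.3, were all above those with SMN-C3. Ddit4l, an inhibitor of mTOR signalling related to Redd1 (chromosome 3, 137621612 to 137628333, plus strand), held 16.3, 12.4 and 8.36 against 0.387, 1.14 and 0.749 (log2 2.90, SE 0.55, adjusted p = 0.19 by limma). Here SMA was high, at 29.0, 16.3 and 7.30, and Ddit4l was called lower with SMN-C3 than in SMA (log2 -3.23, adjusted p = 0.038 by limma). Xaf1, an interferon-inducible protein that opposes the apoptosis inhibitor XIAP, held 28.6, 18 and 12.8 against 2.83, 5.76 and 3.21 (log2 2.05). Itpr2, a calcium release channel of the endoplasmic reticulum, held 9.96, 10.7 and 15 against 2.35, 2.04 and 2.89 (log2 1.90). SMA libraries held 6.37 to 25.2 for Xaf1 and 2.67 to 12.7 for Itpr2. The SMA range of Itpr2 reached into that of both treatments, and that of Xaf1 lay above the SMN-C3 libraries and reached into the MW150 range.

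For several others in this set the difference sat in a short or noncoding transcript model. Zfp131, a zinc finger protein, held 497, 429 and 256 scaled TPM with MW150 and 82.0, 134 and 80.4 with SMN-C3, nearly all of it a coding model of 663 bases (ENSMUST00000223812.1). Unc13d, a vesicle priming protein, held 63.5, 52.3 and 42.5 against 12.1, 19 and 11.1, nearly all of it 1 noncoding transcript (ENSMUST00000155120.1). For Tia1, an RNA-binding protein of stress granules, the change of 1.19 became 0.30 with coding transcripts only, and for Anks3 1.67 became 0.94.

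Retained-intron transcripts as a class held more of the RNA with MW150. They took 5.34%, 5.00% and 5.19% of TPM in the MW150 libraries and 3.16%, 3.20% and 3.15% in the SMN-C3 libraries (5.18 ± 0.167 and 3.17 ± 0.0252, SD, n = 3 each). The groups did not overlap, and the exact two-sided permutation test gave p = 0.1, its smallest value. The difference of 2.01 percentage points ranged from 1.93 to 2.10 when 1 library was left out. SMA libraries lay between, at 3.56% to 4.80%, and WT libraries ranged from 3.92% to 6.20%. Transcripts annotated for nonsense-mediated decay differed less, at 2.38% ± 0.0413 and 2.13% ± 0.0998, and those annotated as processed transcripts stood at 4.18% ± 0.145 and 3.39% ± 0.168 (SD, n = 3 each). Protein-coding transcripts held a smaller share with MW150, at 83.9% ± 0.570 against 86.4% ± 0.591. In each of these classes the groups did not overlap, with p = 0.1 in the same exact permutation test (n = 3 each).

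The shift was broad over genes. Of 5019 genes with at least 5 TPM in the 6 libraries and a retained-intron model, the share in such transcripts was higher on average with MW150 in 4220 and lower in 651. The libraries did not overlap for 1967 in the higher direction (39.2%) and for 54 in the lower direction (1.08%). The median gene had 5.67%, 5.02% and 6.14% of its TPM there with MW150 and 1.36%, 1.29% and 1.34% with SMN-C3. WT had 2.67% to 3.66% and SMA 2.04% to 4.42%, between the treatments. Srsf5, a splicing factor of the SR family, had 23.8%, 31.1% and 34.6% with MW150 and 7.10%, 1.91% and 3.90% with SMN-C3. Hnrnpk, an RNA-binding protein of the hnRNP family, went the other way, with 23.1%, 21% and 26.8% against 49.5%, 25.1% and 32.7%, and those groups overlapped. Hnrnpk was chosen after its values were seen. The number of genes detected, given above, was also higher in every MW150 library, and its part in the result was not tested.

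**Figure D2:**
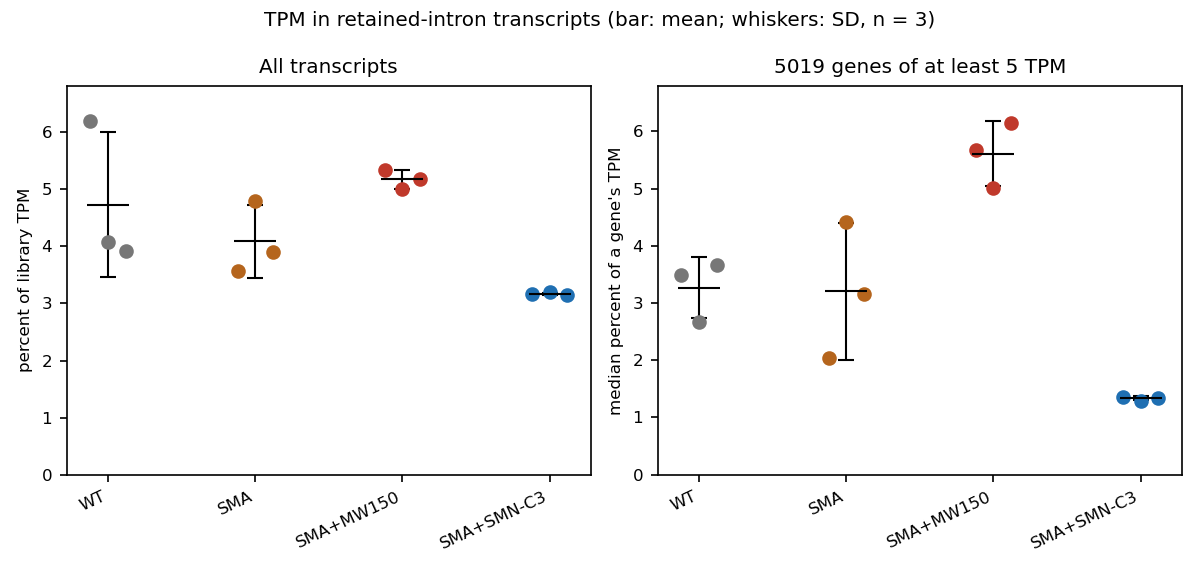
Percent of TPM in transcripts annotated as retaining an intron, over all transcripts of a library (left) and as the median over 5019 genes (right); points are libraries, bars the mean and whiskers the SD of 3. The MW150 libraries (5.00% to 5.34%, left) lie above the SMN-C3 libraries (3.15% to 3.20%).

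Genes of motor neuron identity stood lower with MW150 than with SMN-C3 in the median, and so did other genes of their level. Of 28 tested, 19 had a change below 0 (47.2% of all genes did), 10 had libraries that did not overlap in that direction (35.7%, against 13.1% of all genes), and 4 in the other. Their median level was 5.13 to 5.65 on the log2(scaled TPM + 1) scale, within the highest of 4 equal bins of level, where 36.3% of genes did not overlap in that direction and the median change was -0.25. The median was -0.35, with -0.04, -0.12 and -0.12 for TPM as deposited, quantile normalization and cyclic loess. Genes of cholinergic transmission and other motor neuron products had 10 of 11 below 0 (median -0.38), and transcription factors 9 of 17 (median -0.09). None was called.

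Chodl, a membrane lectin that marks fast motor neurons, showed the widest gap of the list (chromosome 16, 78930948 to 78951733, plus strand). It held 312, 195 and 158 scaled TPM with MW150 and 510, 578 and 623 with SMN-C3. SMA held 110, 126 and 360 and WT 686, 506 and 714, so the MW150 libraries lay in the range of SMA and the SMN-C3 libraries largely in that of WT. The log2 change was -1.41 (SE 0.48, adjusted p = 0.55 by limma). Calcb, the neuropeptide beta-CGRP, held 516, 479 and 418 against 793, 932 and 848 (log2 -0.87). Hoxd10, a transcription factor of lumbar motor neurons, held 21, 15.5 and 34.9 against 54.0, 60.9 and 37.3 (log2 -1.11), and Mnx1, a motor neuron determinant, held 22.5, 31.1 and 20.6 against 38.9, 43.7 and 32.7 (log2 -0.63).

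The enzymes and transporters of acetylcholine showed smaller gaps. Chat, which makes acetylcholine, held 95.2, 104 and 87.8 with MW150 and 113, 142 and 119 with SMN-C3 (log2 -0.38, adjusted p = 0.69 by limma). Both treated groups lay above SMA (64.6 to 84.7). Slc18a3, the vesicular acetylcholine transporter, held 359, 366 and 306 against 446, 551 and 540 (log2 -0.57). It lies within the span of Chat on the same strand. Isl1, a transcription factor, did not separate the treatments, at 52.6 to 80.9 and 47.4 to 86.1. Layn, a hyaluronan receptor named by its small p, held 52.0, 41.8 and 36.6 with MW150 and 75.7, 110 and 97.7 with SMN-C3 (log2 -1.10, adjusted p = 0.50 by limma). SMA held 23.8 to 53.9 and WT 103 to 119, an order like that of Chodl.

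**Figure D3:**
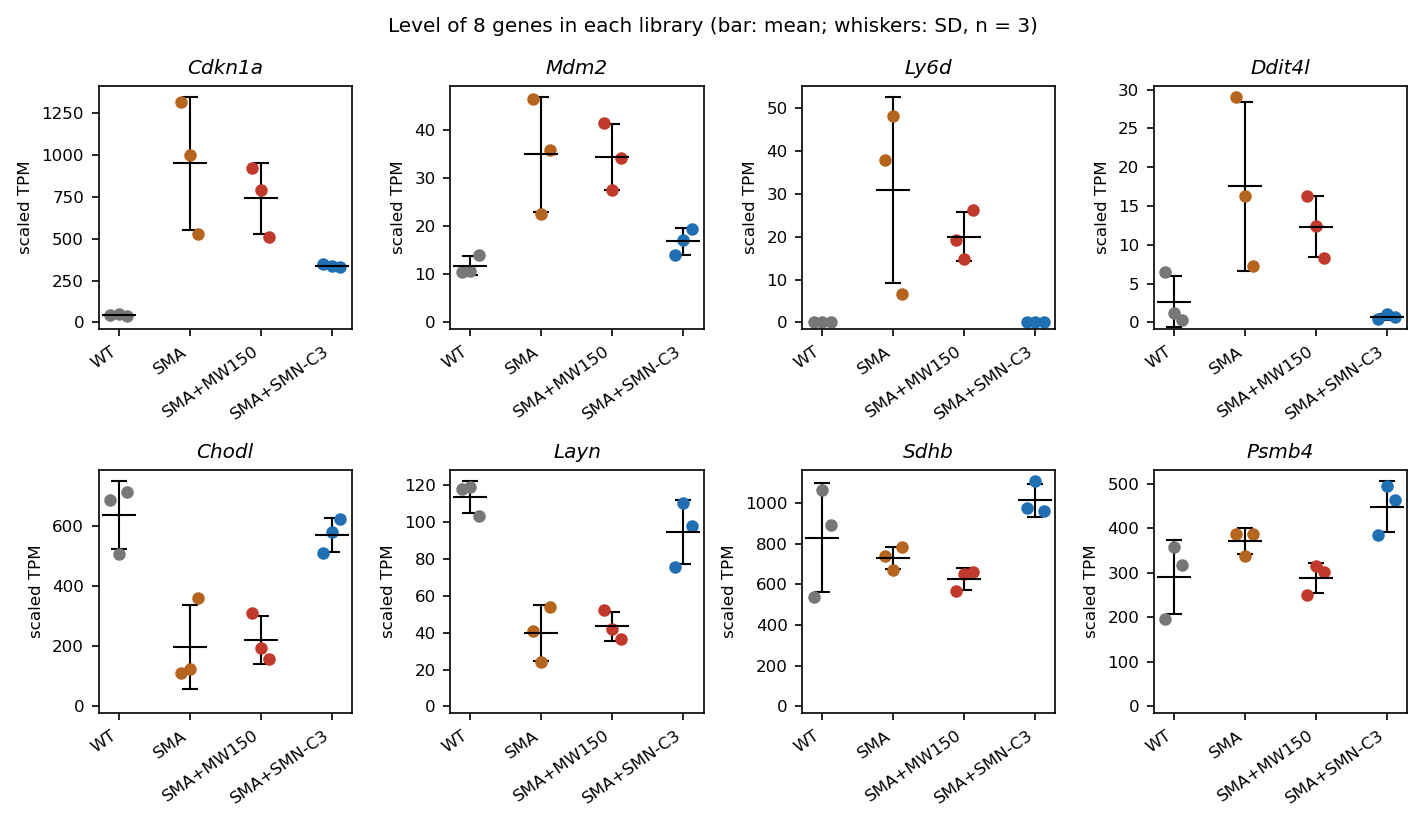
Scaled TPM of 8 genes in each library of WT, SMA, SMA+MW150 and SMA+SMN-C3; points are libraries, and bars and whiskers the mean and SD of 3, not drawn where all 3 are listed at 0. Cdkn1a, Mdm2, Ly6d and Ddit4l are higher, and Chodl, Layn, Sdhb and Psmb4 lower, in every MW150 library than in any SMN-C3 library.

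Genes of energy supply and protein turnover were also lower with MW150, by small amounts in nearly every member. All 77 nuclear genes of the respiratory chain had a change below 0 (median -0.43), and the libraries did not overlap for 65 (84.4%, against 13.1% of all genes). Complexes I and II to III, complex IV and ATP synthase were alike, with medians of -0.43, -0.45, -0.34 and -0.45. Sdhb, the iron-sulphur subunit of complex II, held 566, 653 and 659 scaled TPM with MW150 and 974, 1106 and 960 with SMN-C3 (log2 -0.69, SE 0.23, adjusted p = 0.53 by limma). Ndufb10, a subunit of complex I, held 532, 678 and 659 against 935, 1045 and 1007 (log2 -0.68). No gene of the list was called. SMA lay between the treatments for Sdhb, at 670 to 781, while WT ranged from 537 to 1062 and covered both.

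The proteasome and both ribosomes behaved alike. All 31 proteasome genes were below 0 (median -0.44), and 26 had libraries that did not overlap (83.9%), among them all 14 genes of the 20S core. Psmb4, a core subunit, held 250, 314 and 302 against 385, 496 and 465 (log2 -0.63, SE 0.23, adjusted p = 0.56 by limma). Psmc5, an ATPase of the 19S cap, held 251, 317 and 283 against 399, 494 and 428 (log2 -0.63). Of 78 mitochondrial ribosomal proteins, 75 were below 0 (median -0.34), and 48 did not overlap (61.5%). Mrpl12 held 216, 224 and 227 against 304, 355 and 329 (log2 -0.56). Of 80 cytosolic ribosomal proteins, 72 were below 0 (median -0.29, but above 0 under each alternative scaling given below), and 39 did not overlap (48.8%). Many ribosomal protein genes have near-identical pseudogene copies, so their levels are uncertain. The 13 mitochondrially encoded mRNAs had a median of -0.35, above 0 with quantile normalization and loess, with 4 that did not overlap.

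These differences depended on the scaling and moved with the level of expression. The median of all genes was 0.04 as scaled, 0.30 with TPM as deposited, -0.03 with quantile normalization and -0.01 with cyclic loess. The median of the respiratory chain was -0.12, -0.06 and -0.006 under these 3 alternatives, and that of the proteasome -0.12, -0.10 and -0.10. Mitochondrial ribosomal proteins gave -0.03, -0.11 and -0.11. The counts of members that lay wholly lower with MW150 fell as well, from 65 to 17, 10 and 8 for the respiratory chain, from 26 to 8, 7 and 8 for the proteasome and from 48 to 8, 17 and 15 for the mitochondrial ribosomal proteins. The cytosolic ribosomal proteins turned to 0.03, 0.04 and 0.04, and mitochondrially encoded genes to 0.02 and 0.14 with quantile normalization and loess. Genes ranked by mean level into 4 equal bins had median changes of 0.31, 0.19, 0.005 and -0.25 from the lowest bin to the highest. In the highest bin 36.3% of genes had MW150 libraries wholly below SMN-C3 libraries, and 50.7% of its shortest genes. The part of level and length in the lists' values was not tested. p53 targets, at a median level in the second bin, had a median of 0.44 beside 0.19 for that bin.

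**Figure D4:**
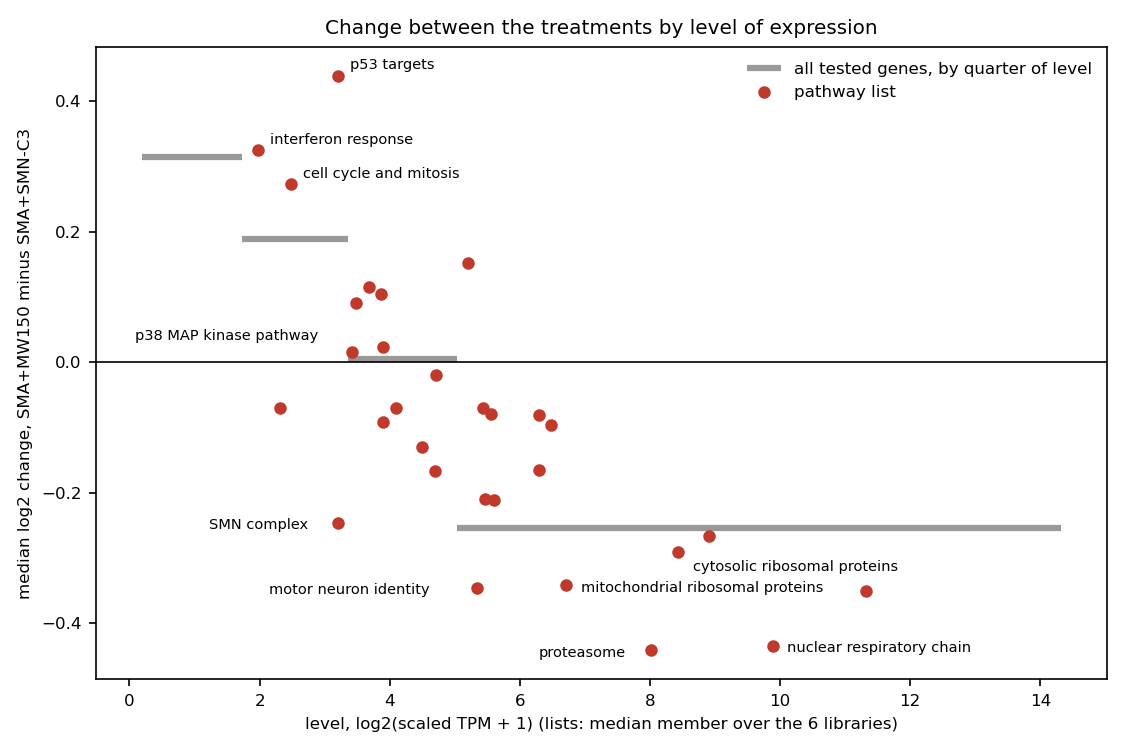
Median log2 change between SMA+MW150 and SMA+SMN-C3 against level for the 30 pathway lists (points) and for all tested genes in 4 equal bins of level (grey lines, drawn over each bin's range). The grey lines go from 0.31 to -0.25, the p53 targets lie above them at 0.44, and the respiratory chain and proteasome lie below at -0.43 and -0.44.

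The sequence of the promoters was searched for letters that are common in genes of this kind. The ETS core CCGGAAG, on either strand, occurred in the promoter window of 18.4% of tested genes, 25% of the respiratory chain genes with a window (16 of 64), 37.7% of mitochondrial ribosomal protein genes (26 of 69) and 40% of proteasome genes (10 of 25). Shares of this size also occurred in other lists. Among lists with medians near 0, it occurred in 40.6% of snRNP core protein genes (13 of 32) and 33.3% of minor spliceosome genes (4 of 12). The snRNP list joins Sm and LSm proteins (median -0.31) with larger proteins (median 0.15), and its share was not split between them. In the p38 pathway, also with a median near 0, it occurred in 0 of 35. The part of these letters in the lists' values was not tested.

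Genes outside these lists stood lower with MW150 too. The 10 named by the smallest p were not called. Arf5, a small GTPase of the Golgi, held 286, 307 and 293 scaled TPM with MW150 and 463, 651 and 598 with SMN-C3 (log2 -0.93, SE 0.25, adjusted p = 0.40 by limma). Sqor, the mitochondrial enzyme that oxidises hydrogen sulphide, held 6.40, 8.20 and 9.10 against 14.6, 23 and 14.6 (log2 -1.03). Zswim7, a protein of homologous recombination, held 64.1, 63.8 and 64.4 against 97.8, 151 and 129 (log2 -0.94). G0s2, an inhibitor of the lipase ATGL, held 35.7, 44.6 and 51.1 against 61.4, 98.3 and 65.5 (log2 -0.75). Timmdc1, an assembly factor of complex I, held 29.5, 34.0 and 29.3 against 42.7, 60.0 and 50.5 (log2 -0.70). The others, Fam89b, Rwdd2a, Pcbd2, Htatip2 and Layn, had changes from -1.10 to -0.75. For Arf5, G0s2, Sqor and Timmdc1 the SMN-C3 libraries lay above all SMA and WT libraries as well.

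The p38 pathway itself showed no common direction. MW150 acts on the activity of the kinase, which RNA levels do not measure. Of 37 listed genes 36 were tested, 19 above and 17 below 0, and the libraries did not overlap for 6 in the higher and 4 in the lower direction (16.7% and 11.1%, near the background). Mapk14, which encodes p38 alpha, held 7.60, 9.59 and 15.3 scaled TPM with MW150 and 12.6, 11.9 and 7.83 with SMN-C3 (log2 -0.02, SE 0.33, adjusted p = 0.99 by limma). The other p38 kinases were between -0.67 (Mapk13) and 0.43 (Mapk11). Map3k4, an upstream kinase, held 23.2, 20.9 and 16.8 against 10.1, 10.5 and 8.34 (log2 0.996, adjusted p = 0.56 by limma). Mef2c, a transcription factor that p38 phosphorylates, held 5.51, 3.91 and 7.61 against 2.98, 1.41 and 2.22 (log2 1.05, adjusted p = 0.55 by limma). Mapkapk2, the main kinase below p38, was on the other side, with 12.0, 14.6 and 12.3 against 15.4, 18.8 and 19 (log2 -0.42).

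Other stress responses differed little. Of 20 tested AP-1 and injury genes, 8 were above and 12 below 0 (median -0.17). The median was 0.09 with TPM as deposited, where that of all genes was 0.30. It was -0.09 with quantile normalization and -0.08 with cyclic loess. Fos held 36.8, 37.4 and 28.0 against 28.5, 14.5 and 18.5 (log2 0.75), and its groups overlapped. Egr1, another immediate early factor, held 10.3, 14.4 and 10.1 against 6.60, 7.44 and 7.14 (log2 0.63). The integrated stress response had a median of -0.07, with 3 of 27 genes that did not overlap in each direction. Its median was 0.21, -0.11 and -0.10 with TPM as deposited, quantile normalization and loess. Slc7a11, the cystine transporter and an ATF4 target, was among the higher ones, at 5.22, 5.48 and 4.45 against 2.20, 2.71 and 2.06 (log2 0.87). Chaperones of the endoplasmic reticulum had 17 of 20 below 0 (median -0.21). Their median was 0.10, -0.04 and -0.05 under the same 3 alternative scalings. Hspa5, the chaperone BiP, held 227, 238 and 175 against 288, 280 and 310 (log2 -0.47).

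Partners of SMN were mixed. Of 9 genes of the SMN complex, 4 were above and 5 below 0 (median -0.25), and 3 did not overlap, all lower with MW150. The median of the 9 was 0.03 with TPM as deposited, where that of all genes was 0.30. It was -0.27 with quantile normalization and -0.25 with cyclic loess. Gemin6 held 7.33, 10.8 and 15.3 against 30.6, 23.5 and 18 (log2 -1.07, adjusted p = 0.61 by limma). Gemin7, its partner in the complex, held 101, 119 and 126 against 176, 165 and 161 (log2 -0.54), and Strap held 83.4, 90.9 and 87.0 against 117, 121 and 129 (log2 -0.49). Among snRNP proteins, the Sm and LSm proteins, which form the rings that SMN loads or their relatives, had 17 of 19 below 0 (median -0.31), and 9 did not overlap (47.4%), all lower with MW150. Their median level lay in the highest bin of level, where the median change was -0.25 and 36.3% of genes were wholly lower with MW150. The larger proteins of the major snRNPs had 14 of 21 above 0 (median 0.15). Over all 40 snRNP genes the median was -0.08, and it was above 0 under each of the 3 alternative scalings. Proteins of the minor spliceosome had a median of -0.02, with 3 of 13 that did not overlap in each direction. Core histone genes had 16 of 24 above 0 (median 0.15), and 8 did not overlap in the higher direction (33.3%) and 4 in the lower (16.7%). Hist1h4h held 15.1, 34.8 and 26.1 against 12.0, 7.67 and 8.18 (log2 1.30, adjusted p = 0.37 by limma). Poly(A) selection and near-identical copies make histone levels uncertain.

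For genes of excitability and of the axon, the list medians were small or changed sign with the scaling, and single genes are given. Grin3b, an NMDA receptor subunit found in motor neurons (chromosome 10, 79970715 to 79977190, plus strand), held 0.467, 0.425 and 0.384 scaled TPM with MW150 and 2.81, 5.40 and 4.49 with SMN-C3 (log2 -1.84, SE 0.36, adjusted p = 0.22 by limma). It was called with quantile normalization and with cyclic loess. Gria2, the AMPA receptor subunit that limits calcium entry, held 92.3, 76.7 and 75.3 against 51.3, 53.5 and 45.4 (log2 0.69). Retained-intron transcripts held 31.7%, 34.5% and 35.7% of its TPM with MW150 and 8.78%, 15.1% and 9.83% with SMN-C3, so the gap in coding RNA was smaller. Grm5, a metabotropic receptor, held 10.1, 7.11 and 10.5 against 3.12, 2.65 and 3.98 (log2 1.26). Over the 33 glutamate receptor genes the median was 0.09.

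Of 30 genes of sodium, calcium and HCN channels, 9 did not overlap in the higher direction (30%, against 13.4% of all genes). In the lower direction 3 did not overlap (10%), and the median was 0.10. Among sodium channels, the auxiliary subunit Scn3b held 41.9, 33.5 and 27.3 against 23.2, 14.8 and 19.6 (log2 0.80), and these groups did not overlap. Retained-intron transcripts held 22.9%, 12.6% and 16.4% of its TPM with MW150 and 2.27%, 0% and 0.929% with SMN-C3. Potassium channels had a median of -0.09, and Kcnk9, a leak channel, held 39.0, 34.4 and 31.1 against 56.4, 57.4 and 46.0 (log2 -0.60). Receptors for GABA and glycine had a median of -0.13. Of these 21 genes, 6 did not overlap in the lower direction (28.6%, against 13.1% of all genes) and 1 in the higher. Genes of vesicle release had a median of -0.10. With TPM as deposited, where the median of all genes was 0.30, the medians of potassium channels, these receptors and vesicle release were above 0. That of vesicle release was also above 0 with quantile normalization and loess, whereas that of potassium channels was -0.23 with each of them.

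In the axonal cytoskeleton 20 of 26 genes were below 0 (median -0.27), which turned to 0.05, 0.06 and 0.09 under the 3 alternative scalings. As scaled, 8 did not overlap in the lower direction (30.8%) and 2 in the higher. In the highest bin of level, where the list's median level lies, 36.3% of genes did not overlap in the lower direction. Nefl, the light neurofilament, held 3960, 4440 and 3467 against 5762, 6734 and 6500 (log2 -0.68, adjusted p = 0.61 by limma). Tubb3, a neuronal tubulin, held 1057, 1390 and 1048 against 1456, 2187 and 1734 (log2 -0.61). Ank3, the scaffold of the axon initial segment, was opposite, at 106, 89.8 and 87.4 against 58.1, 61.4 and 51.9 (log2 0.71). So was Kif1a, a kinesin that carries vesicle precursors, at 254, 243 and 200 against 122, 140 and 182 (log2 0.66). Lysosome and autophagy genes had 27 of 36 below 0 (median -0.21, and near 0 with quantile normalization and loess), with the autophagy receptor Sqstm1 at 481, 576 and 512 against 613, 863 and 780 (log2 -0.51).

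Cell cycle genes had 29 of 40 tested members above 0 (median 0.27), and 6 did not overlap in the higher direction (15%, near the background). Cdkn1a is counted here too. Mcm3, a replication helicase subunit, held 2.73, 1.60 and 3.42 against 0.0971, 0.138 and 0.0277 (log2 1.69, adjusted p = 0.39 by limma). Of 25 interferon response genes 15 were tested, 13 of them above 0 (median 0.33), and 2 did not overlap in the higher direction. Xaf1 and Stat2 led them, Stat2 with 4.03, 3.03 and 7.59 against 2.27, 1.47 and 1.29 (log2 1.08). Both lists have a median level in the second bin of level, whose genes had a median change of 0.19. With TPM as deposited, quantile normalization and loess, the cell cycle median was 0.52, 0.06 and 0.09. The interferon median was 0.55, 0.12 and 0.09, beside 0.30, -0.03 and -0.01 for all genes. Genes of the MHC class I pathway had 7 above and 7 below 0, Bcl-2 family genes 8 and 7, cholesterol synthesis a median of -0.07 and neurotrophic receptors a median of 0.11.

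Markers of other cells were present in both groups, mostly higher with MW150. All 14 oligodendrocyte markers were above 0 (median 0.55), but none had libraries that did not overlap. Their summed level was 954 to 5601 scaled TPM with MW150 and 748 to 2273 with SMN-C3, so that the groups overlapped widely. The oligodendrocyte median was 0.099 without MW150 replicate 3, 0.13 without SMN-C3 replicate 2, 0.91 without SMN-C3 replicate 1 and 1.10 without MW150 replicate 2. Microglial markers had 11 of 13 tested above 0 (median 0.29), and 5 did not overlap (38.5%, against 13.4% of all genes). Their median level lay in the second bin of level, where 17% of genes lay wholly higher and the median change was 0.19. The microglial median was 0.49, 0.11 and 0.13 with TPM as deposited, quantile normalization and loess. Cx3cr1, a microglial chemokine receptor, held 3.22, 3.48 and 4.90 against 1.51, 0.826 and 1.10 (log2 1.18, adjusted p = 0.40 by limma). The summed microglial level was 120 to 169 and 105 to 144. Astrocyte markers had 12 of 13 above 0 (median 0.32), with sums of 3850 to 5852 and 4141 to 4735. The lowest medians with a library left out were 0.043 for microglia, without MW150 replicate 1, and 0.079 for astrocytes, without MW150 replicate 3. Vascular markers had 7 of 11 above 0 (median 0.19, sums 34.7 to 89.9 and 38.3 to 71.8), and red blood cell markers all 5 (median 0.38, sums 740 to 1649 and 321 to 1805). Without SMN-C3 replicate 2 the red blood cell median turned to -0.32, and without MW150 replicate 3 the vascular median turned to -0.13. Under the same 3 alternative scalings the vascular median was 0.47, 0.03 and 0.02. The 4 tested interneuron markers were above 0 (sums 22.4 to 33.4 and 14.6 to 28.4), while Slc32a1, Pax2, En1, Lbx1 and Tlx3 were among those that did not pass the filter. Schwann and ependymal markers had 4 of 4 above 0 (median 1.10), 2 of which did not overlap (50%, sums 80.3 to 199 and 90.6 to 113), while Prx, Foxj1 and Tmem212 did not pass. Itgam of the microglial list and Cdh5 of the vascular list did not pass either. The part of these cells in the values above was not tested.

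**Figure D5:**
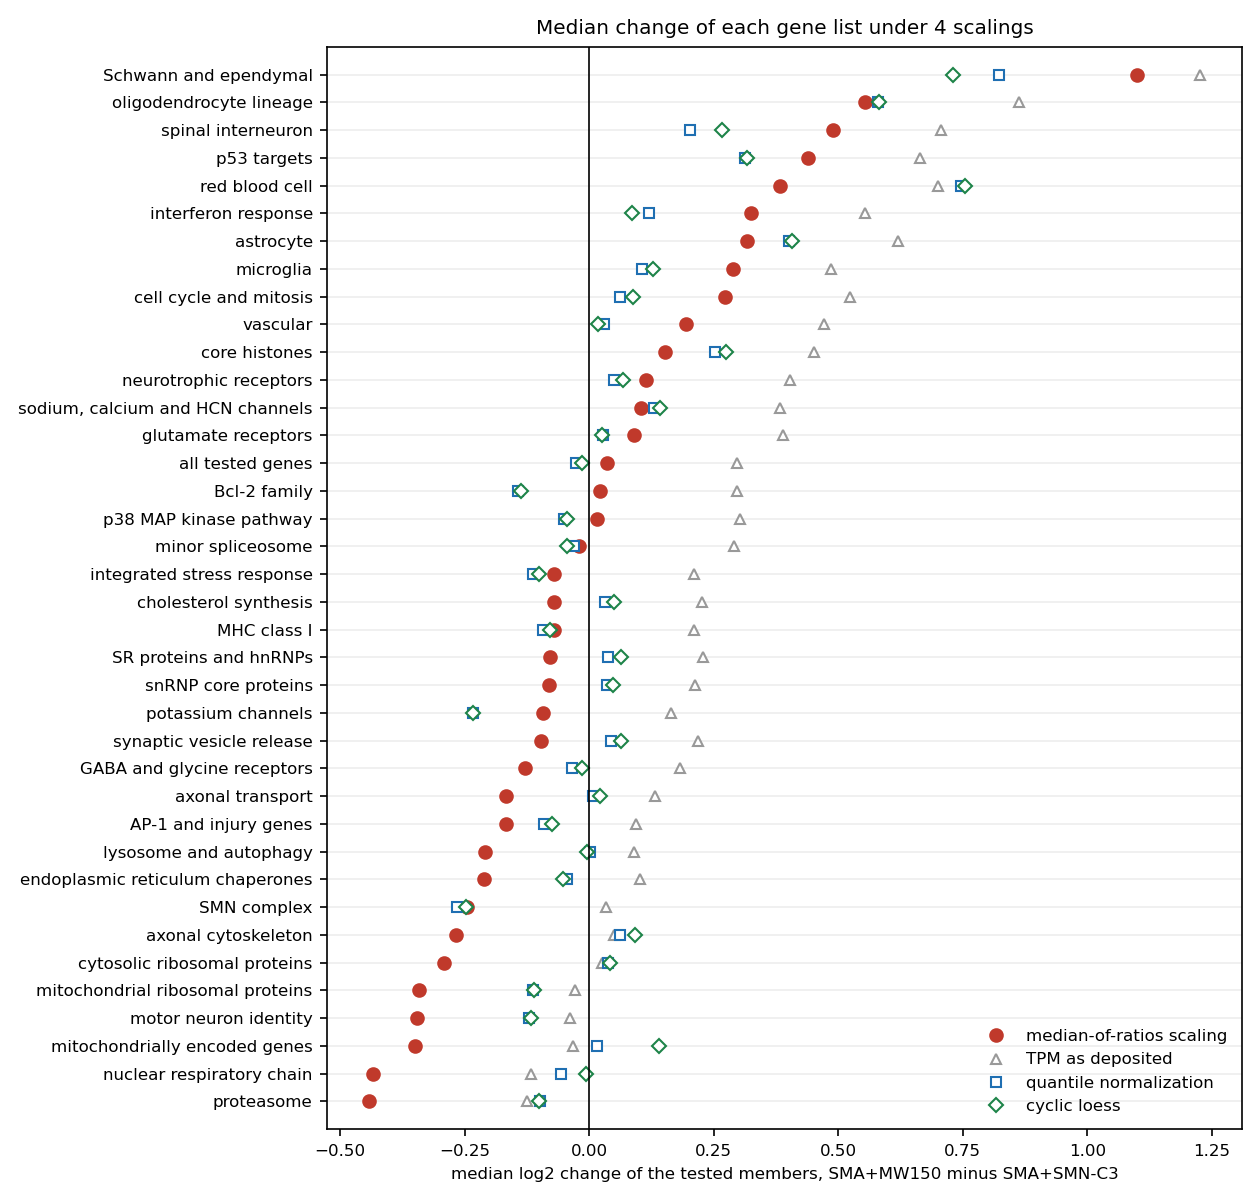
Median log2 change between SMA+MW150 and SMA+SMN-C3 over the tested members of each of the 37 gene lists, and over all tested genes, under 4 scalings. The p53 targets lie between 0.31 and 0.67 under all 4, whereas the cytosolic ribosomal proteins change sign, from -0.29 to 0.04.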

How the data were processed

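The files the authors deposited hold TPM, once summed by gene and once for single transcripts, with the 15 libraries as columns. Per the submitters' processing notes, kallisto 0.44.0, DESeq2 and the builds GRCm38.p6 and mm10 were named, with no roles given. Each library summed to 1000000 TPM. The annotation was inferred: 116816 of 118489 transcript identifiers (98.6%) matched GENCODE M21 (GRCm38), which gives the coordinates. TPM values are not counts, so no count model was used.

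Libraries were scaled by the median of ratios over 13320 genes found in all 15. Genes that reached 1 TPM in 3 or more libraries entered the test as log2(scaled TPM + 1) with limma 3.58.1 in R 4.3.3: group means over all 15 libraries, moderated variances with a trend, two-sided, Benjamini-Hochberg over 15425 genes. Single library values were compared by exact permutation. Tables and figures used Python 3.11.15, pandas 2.3.3 and matplotlib 3.10.9. The steps were tested on simulated data.

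The comparison and the 37 gene lists (1049 genes, 1008 tested) were chosen with earlier results of these data known. Named genes were called genes, up to 10 per direction with the smallest p among genes that did not overlap and reached a mean of 10 TPM (unnamed gene models and pseudogenes left out), up to 4 per list with the smallest p, and Smn1, Trp53, Cdkn1a, Mdm2, Ccng1, Mapk14 and Chat. The replicates share numbers, but same-numbered libraries did not deviate together. Alternatives covered the scaling, the pseudocount, the filter, the libraries in the fit, weights, a replicate block, coding transcripts and each library left out. Promoters came from the RefSeq table (GRCm38.p6). p-values measure the spread between these libraries. Results on some named genes are not reported here.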

Additional observations from a re-analysis of the deposited data

Results flagged for a closer look

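Ly6d was the gene whose change from SMA differed between the treatments. Both changes were taken from the same SMA libraries, so their difference is the contrast of MW150 with SMN-C3 given above and not a further test. It was 4.36 on the log2(scaled TPM + 1) scale (SE 0.532, adjusted p = 0.0051 by limma). Its level was 14.7 to 26.2 scaled TPM in the MW150 libraries, 6.55 to 48.0 in SMA, and it was listed at 0 in the SMN-C3 and WT libraries. The change from SMA was -0.25 with MW150 and -4.60 with SMN-C3.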

How the results depend on the processing

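Between MW150 and SMN-C3, where 1 gene was called, 2 were called with quantile normalization, 4 with a pseudocount of 0.1, 82 with only the 6 libraries in the fit, 890 with array weights (limma reported that the weights had not converged), 6 with the mitochondrial share in the model, 2 with protein-coding transcripts only and 2 with cyclic loess (the last pair of alternatives was added after seeing the data). None was called by limma with a pseudocount of 5 (1085 genes at an unadjusted p under 0.05) or with no filter (1791). Leaving out 1 library gave 0 to 2; the 0 came without MW150 replicate 1 (653 genes at an unadjusted p under 0.05) and without MW150 replicate 3 (773). With the replicate block 1 gene was called, again Ly6d; the deviations of same-numbered libraries correlated at 0.057, 0.087 and 0.023, so the numbers were not taken as pairs.

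MW150 against SMA gave 0 by limma with a pseudocount of 0.1, a mean of at least 5 TPM or coding transcripts only (254, 131 and 203 genes at an unadjusted p under 0.05), 2 with no filter, 3 with array weights and 1 to 1 with a library left out. SMN-C3 against SMA gave 5 with quantile normalization, 1 with a pseudocount of 5, 3 with a mean of at least 5 TPM, 4 with no filter, 177 with array weights, 4 with loess and 2 to 8 with a library left out, in place of 10. MW150 against WT gave 7 with a pseudocount of 5, 10 with no filter, 69 with array weights, 10 with the mitochondrial share and 8 to 16 with a library left out, in place of 19. SMN-C3 against WT gave 3 with TPM as deposited, 65 with array weights, 9 with the mitochondrial share and 3 to 5 with a library left out, in place of 5.

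The median of p53 targets (0.44) was 0.67 with TPM as deposited, 0.31 with quantile normalization, 0.24 with a pseudocount of 5, 0.32 with loess and 0.32 to 0.47 with a library left out. That of mitochondrial ribosomal proteins (-0.34) was -0.029, -0.11 and -0.11 with TPM as deposited, quantile normalization and loess, that of the proteasome (-0.44) -0.12, -0.10 and -0.10, and that of the respiratory chain (-0.43) -0.12, -0.056 and -0.0058, with -0.35 for coding transcripts only. Of 3515 values for 178 named genes, 101 newly passed the threshold (80 with array weights, 17 with only the 6 libraries), 4 lost it and 30, all uncalled and of 16 genes, changed sign, among them Mapk14, Isl1 and Smn1; none reversed a call. The causes were not tested. Depth is unknown.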
